A study of Homo sapiens with 6 samples.

Results

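The genes described here encode voltage-gated calcium and sodium channels and potassium channels, with their auxiliary subunits. They were chosen by symbol alone, as the rows named CACNA1, CACNA2D, CACNB, CACNG, SCN or KCN with the letters and numbers of those families. The rule found 135 of the 26485 gene symbols in the files, and 50 of the 135 reached a level of at least 1 CPM (the usual unit of a count scaled to its library's total) in 3 libraries and were used for statistics. RNA was sequenced from AF22, an established line of human neural stem cells, in 2 groups of 3 libraries. The control group carried a control short hairpin RNA (shControl) on a genotype labelled WT, and the other group was a knockdown of BMI1 and of the read-through transcript COMMD3-BMI1. Both groups come from this 1 line.

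Voltage-gated calcium (CaV) and sodium (NaV) channels open when the membrane is depolarised, through a large pore-forming α subunit, and accessory subunits set how much channel reaches the membrane and how it gates. Potassium channels are the most varied family: voltage-gated (Kv) channels end electrical discharges, inward rectifiers (Kir) and two-pore-domain (K2P) channels hold the resting potential, and a further class opens with intracellular calcium or sodium. In neural stem cells these channels are known for setting the resting potential and calcium signals, and action potentials appear as cells become neurons. BMI1 is a subunit of a Polycomb repressive complex that holds developmental genes silent.

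BMI1 had 85.1, 89.8 and 87.4 CPM in control and 39.9, 21.4 and 26.2 CPM in knockdown libraries. In the unpaired fit BMI1 was at -1.61 on the log2 scale (edgeR adjusted p 0.153), and -1.64 (adjusted p 0.00651) in a fit with the library number as a block. COMMD3-BMI1 was listed at 0 in all 6 libraries. Total counts ran from 4962745 to 9640349 per library. Knockdown library 2 scored 42 on the main axis of a principal component analysis, which held 46.5% of the variance; the others scored -27.2 to 12.2. Same-numbered libraries of both groups deviated together (correlations of 0.428 to 0.512 across genes), so a fit that pairs them by number is given beside the unpaired one. Nothing in the labels says that a number marks a shared culture, and the p-values rest on a spread among libraries that may be technical. Of 9 neural stem cell markers 8 passed the filter, with SOX2, NES and VIM among them and HES5 at 0. Of these 8, 7 had negative values in the paired fit (median -0.25), and 4 were lower in all 3 pairs. VIM was at 0.16, and the smallest edgeR adjusted p of the 8 was 0.0739, for PROM1 (-0.38). Of 13 neuronal markers 9 passed the filter, the sum over the 13 was 1122 to 1289.6 CPM in control and 896 to 1182 CPM in knockdown libraries, and ELAVL4 and RBFOX3 were at 0. In the paired fit 7 of these 9 had negative values (median -0.31), and 2 fell, ELAVL3 (-0.97, adjusted p 0.0231) and NEFM (-0.89, adjusted p 0.0274). Markers of other lineages were present too: 6 fibroblast markers summed to 481 to 709 CPM in control and 573 to 856 CPM in knockdown libraries, and 7 smooth muscle and pericyte markers to 935 to 1140.5 and 1076 to 1378 CPM, with MYH11 and DES under 1 CPM in every library. In each of these lists 1 marker rose in the paired fit, POSTN (0.31, adjusted p 0.024) and RGS5 (0.29, adjusted p 0.0303). The sum over 6 astroglial markers was 548 to 592 CPM in control and 602 to 656 CPM in knockdown libraries, without overlap, with GFAP and ALDH1L1 under 1 CPM, and 1 of the 4 tested rose, GJA1 (0.26, adjusted p 0.0383). The sum over 5 endothelial markers was 145 to 254 and 158 to 300.1 CPM; the 4 tested were higher in every pair, and 2 of them rose, CDH5 (0.55, adjusted p 0.0411) and TIE1 (0.45, adjusted p 0.0335). The sum over 14 cell division genes was 3371 to 3986 CPM in control and 3469, 1865 and 2440.0 CPM in knockdown libraries 1, 2 and 3, and 13 of the 14 fell in the paired fit. The part of these shifts in the channel values was not tested. In a bulk sample, fewer cells that express a channel and less RNA per cell cannot be told apart.

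Channel genes were a small and uneven part of the control transcriptome. Together they made up 862 to 1025 CPM in the control libraries and 877 to 1076 CPM in the knockdown libraries, and the 10 most abundant held 74.8% of the control sum. The median control level of the 50 genes past the filter was 5.65 CPM, against 40.2 CPM over all 13523 genes past it. To compare genes with each other, CPM was divided by the length of the longest protein-coding transcript.

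The highest control level per length belonged to KCNK5, the acid-sensitive background potassium channel TASK-2, at 46.4 ± 7.93 CPM per kb (mean ± SD, n = 3), above 87.2% of all genes tested. CACNG7 followed at 33.9 ± 2.40 CPM per kb. It encodes a γ subunit of the group that also regulates AMPA-type glutamate receptors. In the next place was CACNB3, a cytoplasmic β subunit that carries CaV channels to the membrane, at 15.8 ± 1.92 CPM per kb. The control values of these 3 genes did not overlap with each other. Further down, each gene overlapped with its neighbour in the order. KCNJ2, the strong inward rectifier Kir2.1, stood at 7.42 ± 1.22 CPM per kb. KCNG1 and KCNF1, Kv subunits that form no channel alone, stood at 7.12 ± 1.34 and 5.66 ± 1.04 CPM per kb. The γ subunit gene CACNG8 stood at 7.03 ± 0.565, the sodium channel gene SCN8A at 6.74 ± 0.223 and the α2δ subunit gene CACNA2D1 at 6.36 ± 0.217 CPM per kb. Every α1 (pore-forming) gene of the calcium channels stood below the highest α2δ, β and γ genes. The highest of them was CACNA1G, a low-threshold T-type channel, at 0.817 ± 0.184 CPM per kb, followed by CACNA1H, of the same type, at 0.447 ± 0.0644.

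**Figure D1:**
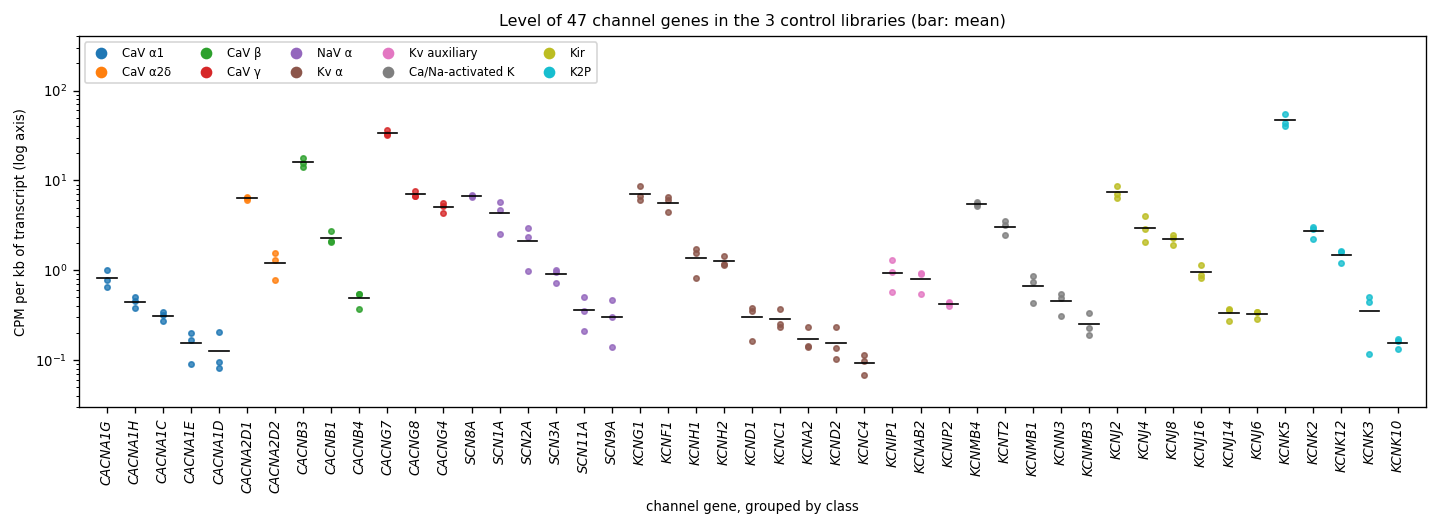
Level of 47 of the 50 channel genes past the filter in the 3 control libraries, in CPM per kb of the longest protein-coding transcript on a log axis; points are libraries, bars are means and colours are classes. KCNK5, CACNG7 and CACNB3 lie above the rest, and the means of the 5 CaV α1 genes lie at or below 0.817 CPM per kb.

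The main question was whether these genes changed with the knockdown. In the unpaired edgeR quasi-likelihood test, adjusted over all 13523 genes, 0 of the 50 channel genes passed an adjusted p of 0.05, as did 0% of all genes tested. At an unadjusted p under 0.05 the same test had 7 of the 50, with 14.2% of all genes; unpaired DESeq2 and limma voom called 0 channel genes. In the paired fit 5 of the 50 passed (10%), 4 higher and 1 lower, where 9.82% of all genes passed (4.57% higher, 5.25% lower). The share of channel genes is near that of all genes. At an unadjusted p under 0.05 the paired fit had 15 of the 50 (30%), against 27.9% of all genes. The 4 that rose were CACNA1D, CACNA2D1, CACNG7 and KCNA2, and the 1 that fell was KCNG1. The paired count was 3 of 47 without pair 1, 6 of 47 without pair 2 and 3 of 50 without pair 3. Pair 2 holds the knockdown library that stood apart. Of the 5 genes, 2, 4 and 2 were kept. Over all genes, 1369 of 13270, 2264 of 13159 and 965 of 13172 passed in the same 3 fits. Paired DESeq2 called 1 of 50, CACNA2D1, and 584 of 13523 over all genes. The unpaired edgeR test without knockdown library 1 called 3 of 50 (CACNA2D1, KCNA2 and KCNK12), and 661 of 13409 over all genes. The paired log2 fold changes were balanced, with 25 above and 25 below 0 and a median of -0.03, against -0.0065 over all genes. Within pairs 1, 2 and 3 the median channel difference was 0.03, 0.13 and 0.01. All 3 pairs had the same sign in 13 genes that were higher and 10 that were lower (26% and 20%, against 25.0% and 26.3% of all genes).

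The groups did not overlap in 5 channel genes that were higher in knockdown (10%, against 9.13% of all genes) and in 1 that was lower (2%, against 11.0%), together 6 of 50 where 20.1% of all genes had no overlap. Besides CACNA1D, CACNA2D1, CACNG7 and KCNG1 these were KCND2 and KCNMB4. Fitted paired values of at least 1 log2 unit in size were found in 4 of 50 channel genes (8%), against 1.18% of all genes. The channel genes were also measured less precisely, with a median SE of 0.237 in the paired fit against 0.1 over all genes. All 4, CACNA1D, KCNA2, KCND2 and KCNC1, had a mean under 5 CPM in each group. Values between -0.25 and 0.25 were found for 31 of the 50 (62%), and for 68.8% of all genes.

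**Figure D2:**
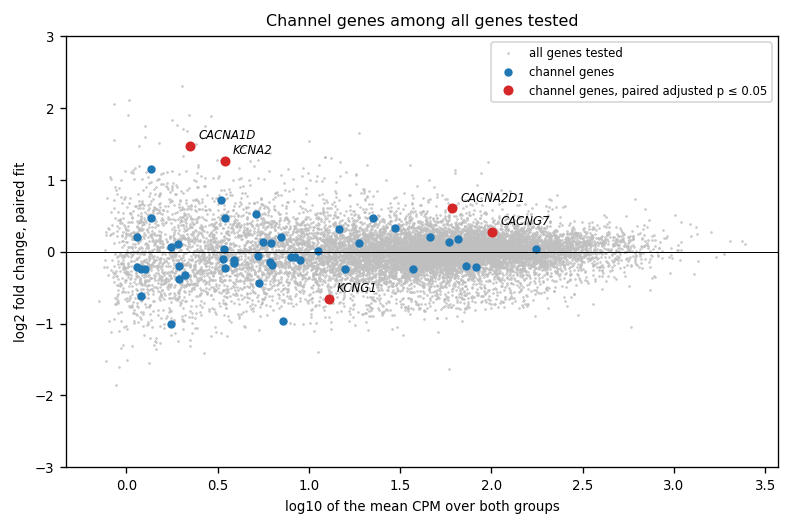
Paired log2 fold change (y axis) against the log10 of the mean CPM over both groups (x axis) for all 13523 genes tested in grey, the channel genes in blue and the 5 past an adjusted p of 0.05 in red. Channel genes lie within the cloud of all genes, mostly at its low-expression side.

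**Figure D3:**
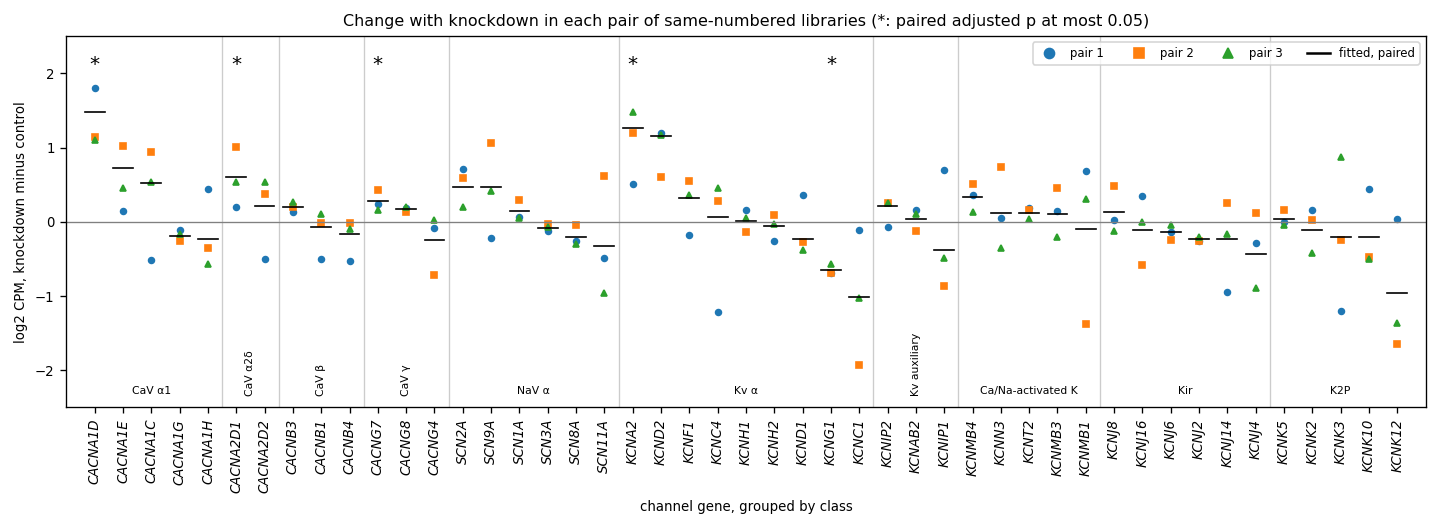
Difference in log2 CPM, knockdown minus control, in each pair of same-numbered libraries (points), with the paired fit (bars), for 47 of the 50 channel genes by class; asterisks mark the 5 genes past an adjusted p of 0.05. Within most classes genes lie on both sides of 0.

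Among the calcium channel pores, the only one past the threshold was CACNA1D, which encodes the α1 subunit of the L-type channel CaV1.3, a channel that opens at modest depolarisation. CACNA1D had 0.735, 1.85 and 0.865 CPM in control libraries 1, 2 and 3 and 3.31, 4.45 and 2.20 CPM in the knockdown libraries, all 3 knockdown values above all control values. It rose in the paired fit by 1.48 (SE 0.323, edgeR adjusted p 0.0292) on the log2 scale, with 1.81, 1.14 and 1.10 in pairs 1, 2 and 3; the unpaired adjusted p was 0.262. These values rest on 4, 12 and 6 control and 16, 33 and 21 knockdown counts. Without pair 1 the adjusted p was 0.0528, and without pair 2 the gene did not pass the filter. CACNA1D lies on chromosome 3 at 53328963 to 53813733 on the plus strand (GRCh38, GENCODE 29) and shares 1399 bases of exon sequence with CHDH on the other strand. CHDH itself averaged 2.6 CPM in the control group and 1.47 CPM in the knockdown group, and the strand setting of the counting is not given.

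The other 4 tested α1 genes did not pass. The paired log2 fold change was 0.53 for CACNA1C (CaV1.2, also L-type; 95% interval -0.08 to 1.14) and 0.72 for CACNA1E (R-type; 0.11 to 1.32). In both, knockdown library 2 was the highest of the 6 libraries. The unpaired 95% interval of CACNA1E was -0.36 to 1.87. CACNA1C had 3.68, 4.63 and 4.33 CPM in control and 2.48, 9.17 and 6.38 CPM in knockdown libraries. The T-type genes CACNA1G and CACNA1H were at -0.19 (-0.60 to 0.23) and -0.23 (-0.86 to 0.40).

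Of the accessory subunits of calcium channels, CACNA2D1 and CACNG7 rose in the paired fit. CACNA2D1 encodes α2δ-1, an extracellular subunit that raises the number of channels at the membrane and is the target of gabapentin. It had 49.5, 48.6 and 46.3 CPM in control libraries 1, 2 and 3 and 56.9, 97.9 and 67.5 CPM in the knockdown libraries, and the groups did not overlap. The control libraries lay close together, while knockdown library 2 was far above the other knockdown libraries. CACNA2D1 rose in the paired fit from 48.1 ± 1.64 to 74.1 ± 21.3 CPM (mean ± SD, n = 3 each), a log2 fold change of 0.61 (SE 0.132, edgeR adjusted p 0.0289); the unpaired adjusted p was 0.261. It was called in each of the 10 paired alternatives, DESeq2 (adjusted p 0.0136) included, and the value was 0.40 without pair 2. It lies on chromosome 7 at 81946444 to 82443798, minus strand. The related CACNA2D2 had 7.17, 8.49 and 4.33 CPM in control and 4.97, 11.1 and 6.38 CPM in knockdown libraries and did not pass (0.21, adjusted p 0.589).

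CACNG7 had 87.1, 87.5 and 98.5 CPM in control and 103, 118 and 110.5 CPM in knockdown libraries, with all knockdown values above the control values. It rose in the paired fit from 91.0 ± 6.44 to 110.4 ± 7.67 CPM (mean ± SD, n = 3 each), by 0.28 (SE 0.0751, edgeR adjusted p 0.0499) on the log2 scale, which lies at the threshold. The adjusted p was 0.0656 with total count scaling, 0.224 in paired DESeq2, 0.0934 without pair 1 and 0.106 without pair 3. CACNG7 lies on chromosome 19 at 53909335 to 53943941 and is followed on the same strand by CACNG8 (53963040 to 53990215) and CACNG6 (53992288 to 54012669). The neighbour CACNG8 was at 0.18 (adjusted p 0.154), with 0.18, 0.14 and 0.20 in the 3 pairs, and CACNG6 had 27 counts in all and was not tested. CACNG4, on another chromosome, was at -0.25 (-0.62 to 0.13). Of the β subunits, CACNB3 had 37.9, 48.2 and 42.1 CPM in control and 41.4, 55.3 and 50.7 CPM in knockdown libraries and a log2 fold change of 0.20 (adjusted p 0.146). CACNB1 and CACNB4 were at -0.07 and -0.16.

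Sequence upstream of the gene start is shown for those of the 5 called genes with an entry, and for KCNK5, the gene of highest level. Among the 4 printed windows, that of KCNA2 had the lowest GC content, at 48.8%, where the others had 75.6% to 81.6%. The entries are from RefSeq (GRCh38.p14). The set of entries used here covered 38 of the 50 genes, and CACNG7 and KCNG1 were not matched in it. Each line gives the 250 bases before the most upstream start, 5′ to 3′ on the gene's strand, in lower case with every GC box (GGGCGG, on either strand, overlaps included) in capitals. The regions are chr3:53494361-53494610 (plus strand) for CACNA1D, inside the span of the GENCODE gene, chr7:82443957-82444206 (minus) for CACNA2D1, chr1:110631441-110631690 (minus, the upstream of 2 starts) for KCNA2 and chr6:39229476-39229725 (minus) for KCNK5.
CACNA1D: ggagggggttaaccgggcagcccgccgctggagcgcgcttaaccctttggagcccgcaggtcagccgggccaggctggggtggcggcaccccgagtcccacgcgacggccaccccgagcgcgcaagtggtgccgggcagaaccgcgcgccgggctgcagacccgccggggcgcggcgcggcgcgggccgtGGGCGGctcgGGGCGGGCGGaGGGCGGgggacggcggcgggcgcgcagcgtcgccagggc
CACNA2D1: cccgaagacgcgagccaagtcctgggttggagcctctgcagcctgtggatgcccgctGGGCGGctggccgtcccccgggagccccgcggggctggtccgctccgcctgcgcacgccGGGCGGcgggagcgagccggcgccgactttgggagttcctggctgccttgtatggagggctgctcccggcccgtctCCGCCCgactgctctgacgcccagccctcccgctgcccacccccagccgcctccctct
KCNA2: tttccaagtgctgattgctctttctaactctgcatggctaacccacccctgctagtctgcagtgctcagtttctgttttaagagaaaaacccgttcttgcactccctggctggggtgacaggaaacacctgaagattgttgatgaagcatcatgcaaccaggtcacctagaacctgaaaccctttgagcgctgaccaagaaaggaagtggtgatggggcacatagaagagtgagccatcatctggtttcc
KCNK5: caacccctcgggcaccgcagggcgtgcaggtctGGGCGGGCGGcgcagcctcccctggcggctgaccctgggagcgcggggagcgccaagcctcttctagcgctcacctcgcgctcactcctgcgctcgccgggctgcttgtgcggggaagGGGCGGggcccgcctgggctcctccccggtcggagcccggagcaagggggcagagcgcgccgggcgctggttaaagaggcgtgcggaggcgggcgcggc
The CACNA1D window held 41 CpG dinucleotides and 4 GC boxes, that of CACNA2D1 27 and 3, and that of KCNK5 31 and 3. The KCNA2 window held 2 CpG dinucleotides and no GC box. A GC box was found in 63.2% of the windows of the 38 channel genes and in 42.2% of 27303 windows of the same length over all genes, and the median number of CpG dinucleotides was 16 against 10. The 38 genes had passed the filter, whereas the 27303 windows were taken without regard to level. A comparison with other genes past the filter was not made. The CCAAT box (CCAAT, either strand) was found in 28.9% against 33%, the TATA box (TATAAA) in 7.89% against 11.2%, and none of the 4 printed windows holds either. These are matches of letters, and the start used in AF22 cells is not known from the counts.

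Sodium channel genes are the classic marker of electrical excitability, and 6 of 10 NaV α genes passed the filter. None passed the paired test on all 6 libraries. SCN8A (NaV1.6, found at the axon initial segment) had 77.8, 80.6 and 75.4 CPM in control and 65.0, 77.9 and 61.4 CPM in knockdown libraries, a log2 fold change of -0.20 (95% interval -0.38 to -0.02, adjusted p 0.141). The unpaired 95% interval of SCN8A was -0.44 to 0.05. In the paired fit without pair 2 SCN8A was at -0.28 and past the threshold (edgeR adjusted p 0.00343). SCN2A (NaV1.2, an early neuronal form) had 8.64, 26.4 and 20.9 CPM in control and 14.3, 39.9 and 24.2 CPM in knockdown libraries. It was higher in knockdown in each pair, by 0.71, 0.59 and 0.21 on the log2 scale, and its fitted value was 0.47 (SE 0.129, edgeR adjusted p 0.0519), just outside the threshold. SCN2A was past it with RLE size factors (adjusted p 0.0475) and without pair 3 (0.0308).

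SCN1A and SCN2A differed more between library numbers than between groups. SCN1A (NaV1.1) had 32.5, 60.5 and 74.1 CPM in control and 33.9, 74.3 and 76.5 CPM in knockdown libraries, so that library 1 was the lowest in both groups, and the knockdown differences were 0.06, 0.30 and 0.05. The highest control library exceeded the lowest 2.28-fold in SCN1A and 3.05-fold in SCN2A, but only 1.07-fold in SCN8A. Library 1 was the lowest in both groups in 17 of the 50 channel genes (34%) and in 23.1% of all genes tested. It also had the fewest total counts in each group. SCN1A, SCN2A, SCN3A and SCN9A lie in one cluster on chromosome 2 (165087522 to 166376001). SCN3A, next to SCN2A, had 8.82, 9.26 and 6.63 CPM in control and 8.07, 9.04 and 6.28 CPM in knockdown libraries (log2 fold change -0.08, -0.45 to 0.30). SCN9A and SCN11A, known from sensory neurons, were low and imprecise, at 0.47 (-0.18 to 1.11) and -0.33 (-1.20 to 0.54). All 4 NaV β subunit genes stayed under the filter, with at most 24 counts each over the 6 libraries.

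**Figure D4:**
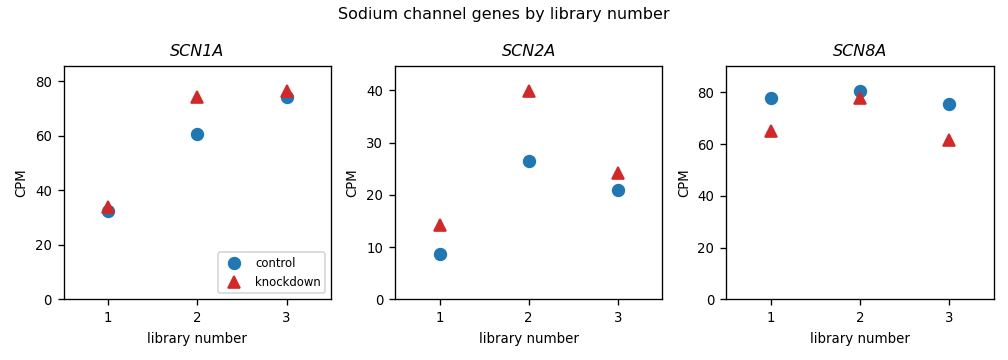
CPM of SCN1A, SCN2A and SCN8A (y axis, from 0) by library number (x axis) in control (circles) and knockdown (triangles) libraries. SCN1A and SCN2A are lowest in library 1 of both groups, and SCN8A is not.

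Of 40 Kv α genes 12 passed the filter, and 2 of these passed the paired test, in opposite directions. KCNA2 encodes Kv1.2, a low-threshold delayed rectifier of axons. It had 1.65, 2.78 and 1.73 CPM in control libraries 1, 2 and 3 and 2.48, 6.74 and 5.34 CPM in the knockdown libraries; knockdown library 1 lay below control library 2, so the groups overlapped. KCNA2 rose in the paired fit by 1.26 (SE 0.27, edgeR adjusted p 0.0276) on the log2 scale, with 0.51, 1.20 and 1.48 in the 3 pairs and an unpaired adjusted p of 0.27. Its counts were 9, 18 and 12 control and 12, 50 and 51 knockdown counts, and without pair 3 the adjusted p was 0.0946. KCNA2 lies on chromosome 1 at 110519837 to 110631474, minus strand; its neighbours KCNA3 (4 counts) and KCNA10 (0) were not tested.

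KCNG1 encodes Kv6.1, which alters other Kv channels in mixed assemblies. It had 14.9, 13.3 and 19.0 CPM in control and 9.11, 8.09 and 12.8 CPM in knockdown libraries, each knockdown library below every control library, by a margin of under 1 CPM at the closest. It fell in the paired fit from 15.7 ± 2.97 to 9.99 ± 2.46 CPM (mean ± SD, n = 3 each), a log2 fold change of -0.65 (SE 0.138, edgeR adjusted p 0.027) that was nearly the same in each pair (-0.69, -0.69 and -0.57). The unpaired adjusted p was 0.284. It was 0.0539 in the paired fit without pair 1, 0.0609 without pair 3 and 0.136 in paired DESeq2. KCNG1 lies on chromosome 20 at 51003656 to 51023129, minus strand. KCNF1, the other abundant electrically silent subunit, had 10.3, 13.7 and 14.9 CPM in control and 9.11, 20.2 and 19.3 CPM in knockdown libraries and did not pass (0.32, -0.03 to 0.68).

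**Figure D5:**
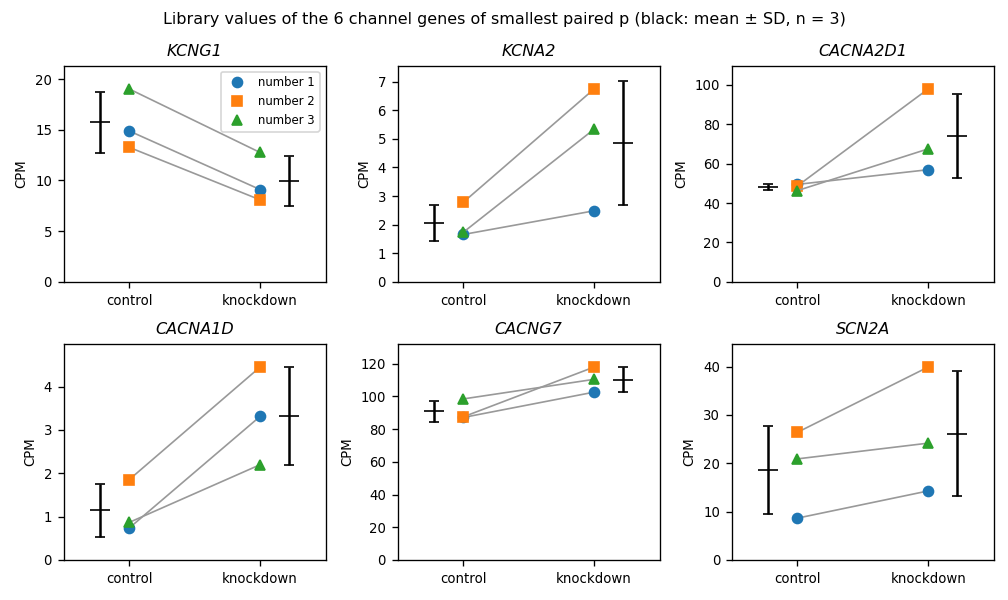
CPM in each library (y axis, from 0) of the 6 channel genes with the smallest paired p; lines join same-numbered libraries, and black bars are group means ± SD (n = 3). KCNG1 falls by a like amount in each pair, and knockdown library 2 is the highest in the other 5 genes.

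The remaining Kv α genes did not pass. KCND2 (Kv4.2, which carries the A-type current of dendrites) was low, at 0.552, 1.23 and 0.721 CPM in control and 1.66, 2.02 and 1.99 CPM in knockdown libraries. Its groups did not overlap, and its value was 1.15 (SE 0.382, edgeR adjusted p 0.0881). KCNC1 (Kv3.1, a fast-spiking channel) had 2.94, 1.85 and 2.02 CPM in control and 2.69, 0.270 and 0.837 CPM in knockdown libraries, low in knockdown libraries 2 and 3 but not in 1 (-1.01, adjusted p 0.18). KCNH1 and KCNH2, channels of the ether-à-go-go family, were at 0.01 (-0.33 to 0.34) and -0.06 (-0.52 to 0.39). Of 12 Kv auxiliary genes 3 were tested and none passed: KCNIP1 (-0.38) and KCNIP2 (0.21), calcium-binding partners of Kv4, and KCNAB2 (0.04), a cytoplasmic Kv1 partner.

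Potassium channels of the resting state showed no call. KCNK5 had 152, 162 and 208 CPM in control and 153, 181 and 201 CPM in knockdown libraries. The paired log2 fold change was 0.04 with a 95% interval of -0.12 to 0.19, and the unpaired interval was wider, at -0.30 to 0.36. In the paired fit alone, the most abundant channel gene was thus measured to within about 0.2 log2 units of 0. KCNK2 (the stretch-activated TREK-1) was at -0.11 (-0.51 to 0.30). KCNK12, which encodes a K2P subunit with little channel activity of its own, had 10.1, 9.88 and 7.50 CPM in control and 10.3, 2.97 and 2.72 CPM in knockdown libraries. Knockdown library 1 was at the control level and the other 2 knockdown libraries were below every control library. Its paired value was -0.96 (SE 0.317, edgeR adjusted p 0.0874). Without pair 1 it was -1.59 (adjusted p 0.00504).

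Of 16 Kir genes 6 were tested, and 5 of the 6 had negative paired values, with none past the threshold. KCNJ2 had 34.6, 38.1 and 47.3 CPM in control and 28.97, 32.0 and 41.0 CPM in knockdown libraries. Its differences were alike in the pairs, at -0.25, -0.25 and -0.20. The paired value was -0.24 (95% interval -0.43 to -0.04, edgeR adjusted p 0.115), and the unpaired interval was -0.61 to 0.15. KCNJ4 (Kir2.3) had 5.88, 4.32 and 8.22 CPM in control and 4.76, 4.72 and 4.29 CPM in knockdown libraries (-0.44, adjusted p 0.282); without pair 2 the adjusted p was 0.0338 at -0.71. Of the 12 calcium- and sodium-activated genes 5 were tested and none passed. KCNMB4, a β subunit of the BK channel that is typical of neurons, had 24.5, 25.9 and 27.5 CPM in control and 31.5, 37.1 and 30.3 CPM in knockdown libraries. Its groups did not overlap, and its value was 0.34 (SE 0.109, edgeR adjusted p 0.082). KCNT2, a sodium-activated channel, was at 0.12 (-0.15 to 0.38).

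The other 85 channel genes were under the filter. Of these, 35 were at 0 in all 6 libraries (25.9% of the 135, against 28.3% of all symbols), which over the summed depth allows up to 0.0738 CPM. They included the muscle and retinal genes SCN4A, CACNG1 and CACNA1F, the pain fibre gene SCN10A, and the neuronal genes KCNA1, CACNG2, CACNG3 and KCNJ3. The remaining 50 had 1 to 38 counts. By the CPM on raw totals that the highest 3 libraries reached, genes just inside the filter were KCNK10 and KCNIP2 (1.25 and 1.10 CPM), and those just outside were KCNJ5, KCNAB3 and CACNA2D3 (0.934, 0.910 and 0.873 CPM). The P/Q-type calcium channel gene CACNA1A had 15 counts and the astrocytic Kir4.1 gene KCNJ10 2.

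Genes outside the rule whose products form other channels, or bind and regulate these ones, were read from a list, of which 52 were in the files. Of the 39 tested, 4 rose and 2 fell in the paired fit, where 4.57% and 5.25% of all genes did; the list median was 0.13, against -0.0065 over all genes. In the unpaired test none of the 39 passed, with 8 at an unadjusted p under 0.05. NALCN, the sodium leak channel, had 8.46, 10.7 and 11.4 CPM in control and 13.2, 22.9 and 17.8 CPM in knockdown libraries and rose by 0.81 (SE 0.151, edgeR adjusted p 0.023) on the log2 scale. ITPR2, an intracellular calcium release channel, rose by 0.39 (SE 0.078, edgeR adjusted p 0.0243), with groups that overlapped. NEDD4L, a ubiquitin ligase that removes sodium channels from the membrane, rose by 0.34 (SE 0.084, edgeR adjusted p 0.0403). REST, a repressor of neuronal genes that include many channels, had 86.6, 78.6 and 78.6 CPM in control and 97.1, 113 and 92.5 CPM in knockdown libraries and rose by 0.31 (SE 0.0842, edgeR adjusted p 0.0491). HCN3, a hyperpolarisation-activated channel, fell by 0.49 (adjusted p 0.0381), and CACHD1, an α2δ-like protein, by 0.37 (adjusted p 0.031). In both, every knockdown library was below every control library: CACHD1 had 79.6, 89.8 and 81.0 CPM in control and 71.0, 64.7 and 59.1 CPM in knockdown libraries.

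Of the 50 tested channel genes 29 share exon sequence with another annotated gene, and for 13 of them that gene is listed in the files. For 2 low channel genes it was far more abundant: PIK3CA (36.3 CPM in control) overlaps KCNMB3 and GRWD1 (72.9 CPM) overlaps KCNJ14, so the values of KCNMB3 and KCNJ14 are uncertain.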

How the data were processed

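Directional RNA libraries were made from total RNA of AF22 cells, per the labels' protocols. For each library the authors deposited the raw count of reads for 26485 symbols. The submitters' processing notes name Trim Galore 0.6.6, STAR 2.7.10a, bedtools and hg38. What program, annotation and strand setting produced the counts is not given in the sources used here.

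Groups and library numbers came from the sample titles. Genes with at least 1 CPM in 3 libraries on raw totals were kept (13523), scaled with TMM and tested with edgeR 4.0.16 (R 4.3.3) by the quasi-likelihood test, with Benjamini-Hochberg adjustment over all of them at 0.05. The paired fit adds the library number as a block; libraries were treated as paired because same-number correlations of deviations from the group means were 0.512, 0.428 and 0.474, each above a bound of 0.1. The pairing thus comes from the data. CPM values use TMM-scaled totals of the kept genes, pair differences log2 CPM with a prior count of 2. The SE is the log2 fold change over the square root of F, and 95% intervals use it with the fit's degrees of freedom, unadjusted. Intervals are of the paired fit unless called unpaired. Total counts of 4962745 to 9640349 limit precision for low genes. Lengths, positions and overlaps are from GENCODE 29 (GRCh38).

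Named genes were channel genes past the threshold in either fit, the 10 of smallest paired p, the 2 of highest control level per length in each class, the 10 of highest level, those at least 0.5 log2 units apart without overlap, 3 on each side of the filter, genes at 0, and genes of the list of channel partners past the threshold; others named were chosen after their values were seen. Some channel genes, which remain in all counts, are not reported here by name. Members and lists were chosen with earlier results of these data known. Alternatives were RLE and total count scaling, 2 other filters, DESeq2 1.42.0, limma voom (limma 3.58.1), removal of a GC content and length trend (97.8% of genes had values), and leaving out libraries or pairs. The scripts were tested on simulated counts.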

Additional observations from a re-analysis of the deposited data

How the results depend on the processing

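The replicate block turned the number of channel genes past the threshold from 0 to 5, and gave the same direction for each named gene. Without the block, leaving out 1 library gave 0 to 3 calls; the 3 came without knockdown library 1, and the other unpaired alternatives gave 0. With the block and no filter beyond 1 count, 8 of the 100 channel genes then tested passed (6 higher, 2 lower), beside 2171 of 18987 over all genes. The count was 1 in DESeq2, which gave 2 of the 5 no adjusted p. Leaving out 1 pair gave 3 to 6, and the 3 came without pair 1 or pair 3. The count was 4 to 6 in the other alternatives. RLE size factors, filterByExpr, limma voom and the GC content and length correction kept all 5 genes, and leaving out pairs 1, 2 and 3 kept 2, 4 and 2 of them. The median log2 fold change of the channel genes stayed near 0. With the block it was 0.037 with filterByExpr, 0.037 with no filter and -0.062 to 0.058 leaving out 1 pair; without the block it was -0.051 to 0.058 leaving out 1 library. The cause of these shifts was not tested. Over all genes, the unpaired count went from 0 to 125 in DESeq2 (57 higher, 68 lower), 2 with no filter and 661 without knockdown library 1; the paired count of 1328 became 584 in DESeq2, 2171 with no filter and 965 to 2264 leaving out 1 pair. No direction of the 5 called genes turned. Values near 0 did when 1 library was left out without the block: -0.20 to 0.41 for CACNA2D2, -0.35 to 0.14 for CACNB1, -0.20 to 0.24 for KCNAB2, -0.70 to 0.11 for KCNK10, -0.26 to 0.063 for KCNK2, -0.054 to 0.18 for KCNK5 and -0.11 to 0.43 for SCN1A. With the block, leaving out 1 pair gave -0.51 to 0.016 for CACNA1H, -0.22 to 0.064 for CACNB1, -0.019 to 0.14 for KCNAB2, -0.21 to 0.086 for KCNK2 and -0.029 to 0.082 for KCNK5. KCNAB2 was at -0.0011 in unpaired limma voom. Low counts limit most channel genes: their median SE of 0.237 log2 units in the paired fit limits how small a change could be seen, and a missed threshold does not show that a gene did not change.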

Other observations

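In some channel complexes the accessory or modifying subunit stood above the pore gene it is known to join in control cells. These genes were chosen after their values were seen, and levels are CPM per kb of transcript. KCNMB4, a β subunit of the BK channel, stood at 5.49, and the BK-regulating LRRC55 at 11.2, while the BK pore gene KCNMA1 had 19 counts in the 6 libraries together. ABCC9, the sulfonylurea receptor of one class of ATP-sensitive channels, stood at 10.5, its pore gene KCNJ8 at 2.23, the alternative pore gene KCNJ11 had 4 counts, and the other receptor gene, ABCC8, was at 0. In the paired fit ABCC9 was at -0.26 (edgeR adjusted p 0.0527) and KCNJ8 at 0.14 (adjusted p 0.717). The difference between the 2 was not tested.

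The partners of NALCN, a channel that rose in the paired fit, had values on both sides of 0. UNC80 had 10.5, 17.6 and 12.8 CPM in control and 11.4, 30.3 and 16.2 CPM in knockdown libraries (log2 fold change 0.48, adjusted p 0.0814), and UNC79 was at -0.50 (adjusted p 0.409). Among the pacemaker channels, HCN4 was at 0.56 (adjusted p 0.0602), beside the fall of HCN3.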
